A study of Homo sapiens with 4 samples.

Results

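The genes described here are 51 complement and coagulation factors, their regulators and the enzymes of fibrinolysis, in the human hepatocellular carcinoma line Huh7. They were measured by the probe sets whose only platform gene symbol is on that list. 50 of the 51 members had such a probe set, 98 probe sets in all, among 19775 named genes on an array of 54675 probe sets. VTN, the gene of vitronectin, had no probe set of its own in the annotation used here and is not analysed here. The study separated Huh7 by flow cytometry into CD133+ and CD133- cells and profiled total RNA of each, taken here as 1 array per population, with no other treatment in the labels. CD133 is the membrane protein encoded by PROM1 and marks tumour-initiating cells in several cancers; the comparison asks how the cells that carry it differ from the rest of the same line. Both groups come from 1 established line, and the labels give no purity, passage or repeat sort. Each population was deposited as RMA values, on a log2 scale, and as MAS5 signals, on a linear scale.

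Complement is a cascade of plasma proteases that ends in membrane pores, and coagulation is a cascade that ends in fibrin, which plasmin then dissolves. Hepatocytes make most of the soluble proteins of both cascades, and host cells restrain complement with membrane proteins and soluble cofactors. Several clotting factors become active only after a vitamin K-dependent carboxylation.

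Values below are RMA values of a gene's brightest probe set, and differences are CD133+ minus CD133- on the log2 scale, unless MAS5 is named. Genes were taken as detected above a floor of 4.86 on at least 1 array, which is the median, across probe sets, of the brighter RMA value. This floor is a rule of brightness, not a detection call. 43 of the 50 measured members were detected, and 12899 genes were detected in all. C7, C9, CFP, F8, F9, KLKB1 and PLAT lay below the floor on both arrays. Because neither array was repeated, no error between replicates, no test and no p-value can be given, and each difference describes these arrays. Probe sets of the same detected gene had differences that scattered around their gene with an SD of 0.21, which leaves out variation between sorts and hybridizations. The sort marker PROM1 had 10.49 in CD133+ cells, against 5.33 in CD133- cells. The hepatocyte markers ALB, APOA1, APOB, TTR, SERPINA1, TF and AFP were all bright, with differences from -0.25 to 0.55. Of the markers of other cells, PTPRC (blood), CDH5, KDR and TEK (endothelium), PPBP (platelets) and COL3A1, DCN and ACTA2 (stroma) were below the floor on both arrays. The 11 above it were CD14, LYZ, CD3E and HBB (blood), PECAM1 and VWF (endothelium), PF4, ITGA2B and GP9 (platelets) and COL1A1 and PDGFRB (stroma). They differed by -0.25 to 0.23. The brightest were LYZ, with 11.11 on both arrays, and COL1A1, with 7.68 in CD133+ and 7.64 in CD133- cells.

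Coagulation and fibrinolysis genes were mostly closer to equal on both arrays than complement genes. The median size of the difference, regardless of sign, was 0.15 for the 23 detected coagulation and fibrinolysis members. It was 0.34 for the 20 detected complement members, against 0.13 over all detected genes. The widest differences on brightest probe sets were those of TFPI2, C6 and CD55 and, in the opposite direction, PLG (plasminogen), F12 and MBL2. Of the 7 detected complement regulators, 5 were higher by at least 0.5 (log2), beside 4.67% of all detected genes. By the values as measured, 2 of the 43 detected members had a difference of at least 2-fold toward CD133+ cells, TFPI2 and C6, beside 1.65% of all detected genes, and 0 were lower, beside 0.116% of all detected genes. The CD133- value of C6 lay below the floor, so that its measured fold is not a bound. With values below the floor set to it, TFPI2 was the 1 member at least 2-fold higher, beside 1.33% of all detected genes. At a smaller size, a difference of at least 0.5 (log2), 8 members were higher, a share of 18.6% beside 4.67% of all detected genes. At the same size 3 members were lower, a share of 6.98% beside 1.56%. With values below the floor set to it, C6 left this count and 7 members were higher, 16.3% beside 4.26% of all detected genes, and 3 lower, beside 1.40%. By MAS5, 11 of 42 members were higher by at least 0.5, a share of 26.2% beside 12% of all genes above the MAS5 floor, and 3 were lower, a share of 7.14% beside 7.13%. The share of lower members thus lay above the share of all genes by RMA and at it by MAS5. The 8 by RMA were TFPI2, C6, CD55, CFI, C4BPB, C4BPA, C1R and CD59, and the 3 were PLG, F12 and MBL2. The median difference of the detected members was 0.02, against -0.01 over all detected genes, and the median size regardless of sign was 0.18, against 0.13 over all detected genes. A higher value can come from more RNA per cell or from more cells that express the gene, which bulk arrays cannot tell apart.

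**Figure D1:**
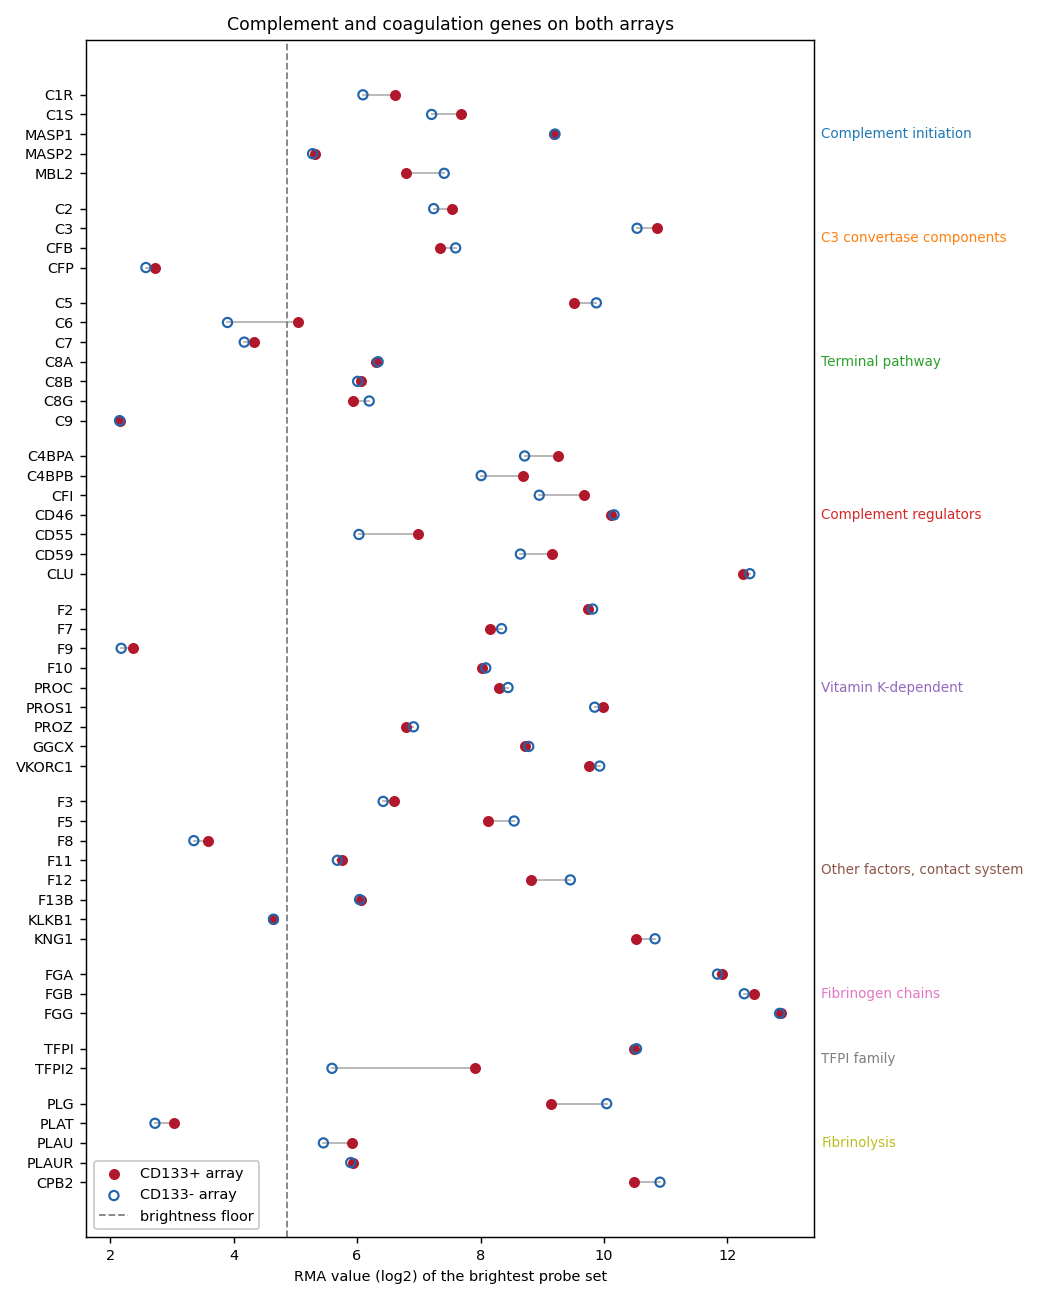
RMA values (log2, horizontal axis) of the brightest probe set of each of the 50 measured members, ordered by role down the page. Filled red points are the CD133+ array, open blue points the CD133- array, and the dashed line is the brightness floor of 4.86. The widest gaps belong to TFPI2 (7.91 in CD133+, 5.59 in CD133-), C6 (its CD133- point below the floor) and CD55 with the CD133+ point to the right, and PLG (9.14 in CD133+, 10.04 in CD133-) with it to the left.

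**Figure D2:**
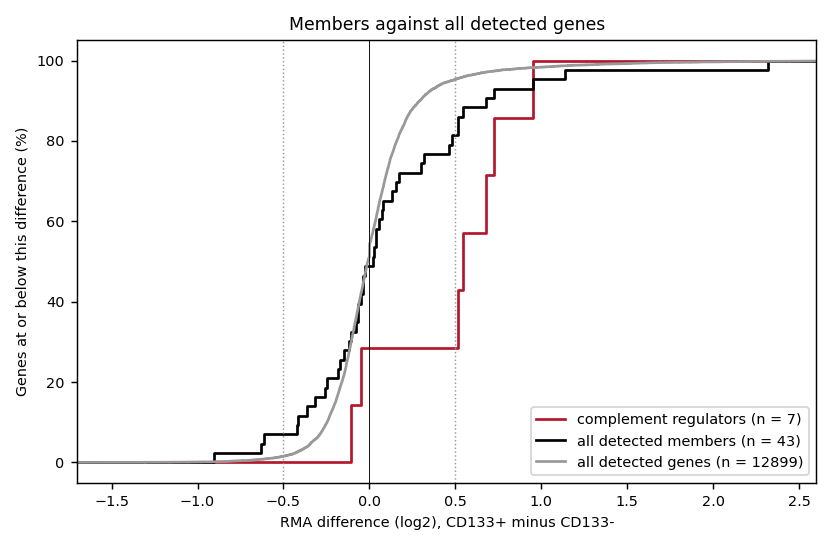
Cumulative share of genes (vertical axis, %) at or below each RMA difference (horizontal axis, log2, CD133+ minus CD133-), for the 7 detected complement regulators, all 43 detected members and all 12899 detected genes. Dotted lines mark -0.5 and 0.5. The regulator curve lies to the right for 5 of its 7 genes, while the curve of all members crosses 0 near its median of 0.02.

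The regulators of complement were the role with the most members at 0.5 or more. By brightest probe sets, 5 of the 7 detected regulators were higher by at least 0.5, beside 4.67% of all detected genes. None was lower by as much on these probe sets, and the median was 0.54. By MAS5 4 of the 7 were higher by at least 0.5, all of these but CD59, beside 12% of all genes above the MAS5 floor. The role lists were chosen with earlier results of these data known. SERPING1 (C1 inhibitor), which is not a member, differed by -0.35. CD55, the decay-accelerating factor that dismantles convertases on the cell surface, had 6.98 in CD133+ cells, against 6.03 in CD133- cells, a 1.93-fold difference. Its MAS5 signals were 375 in CD133+ and 189 in CD133- cells. All 3 CD55 probe sets were higher, by 0.94, 0.95 and 1.38, so that the mean over them (1.09) passed 2-fold.

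CFI, the soluble protease that degrades C3b and C4b, had 9.68 in CD133+ cells and 8.95 in CD133- cells, a 1.65-fold difference. Its other probe set had 9.11 in CD133+ and 8.20 in CD133- cells. C4b-binding protein, the cofactor that presents C4b to CFI, is built of an alpha chain (C4BPA) and a beta chain (C4BPB). C4BPA had 9.26 in CD133+ cells and 8.72 in CD133- cells, a 1.46-fold difference, with MAS5 signals of 2277 in CD133+ and 1502 in CD133- cells. C4BPB had 8.69 in CD133+ cells and 8.01 in CD133- cells, a 1.60-fold difference, with MAS5 signals of 1921 in CD133+ and 1108 in CD133- cells. The protease and both chains of its cofactor were higher together, each by both algorithms.

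CD59, which blocks the last step of pore assembly, had 9.16 in CD133+ cells and 8.65 in CD133- cells, a 1.43-fold difference. This value depended on the probe set: the 4 above the floor differed by 0.51, 0.51, 0.32 and 0.11, and the smallest came from the only one of these not marked as able to match several transcripts. By MAS5 these 4 differed by 0.44, 0.44, 0.41 and 0.37. CD46, the membrane cofactor of CFI, was nearly equal on its brightest probe set, with 10.11 in CD133+ cells, against 10.16 in CD133- cells. Its other probe sets differed by 0.13 and 0.24. By MAS5 all CD46 probe sets were higher, by 0.11, 0.26 and 0.41. CLU, the gene of clusterin, a soluble inhibitor of the terminal complex, had 12.26 in CD133+ cells and 12.37 in CD133- cells, and the others above the floor gave -0.13 and -0.52.

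The genes that start complement went both ways. C1R, a protease of the C1 complex, had 6.61 in CD133+ cells and 6.09 in CD133- cells. MAS5 gave a larger gap, with signals of 324 in CD133+ and 127 in CD133- cells, a 2.55-fold difference against 1.43-fold by RMA. C1S, the protease that C1R activates, had 7.69 in CD133+ cells and 7.21 in CD133- cells, and its second probe set had 5.75 in CD133+ and 4.94 in CD133- cells. The lectin arm did not share this direction. MBL2, the mannose-binding lectin, had 6.80 in CD133+ cells and 7.41 in CD133- cells, 1.53-fold lower, with MAS5 signals of 452 in CD133+ and 696 in CD133- cells. MASP1 and MASP2, the lectin-associated proteases, differed by -0.02 and 0.04, although a second MASP1 probe set differed by 0.35.

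Around the C3 convertases the brightest probe sets differed by -0.25 to 0.32. C3, the central component, had 10.85 in CD133+ cells and 10.54 in CD133- cells, and C2, the catalytic part of the classical convertase, had 7.54 in CD133+ and 7.24 in CD133- cells. The second C2 probe set had 5.34 in CD133+ and 4.80 in CD133- cells, a difference of 0.54 with the CD133- value just below the floor, while its MAS5 difference was 0.04. CFB, the catalytic part of the alternative convertase, had 7.35 in CD133+ cells and 7.60 in CD133- cells. CFP (properdin), which stabilizes the alternative convertase, was below the floor. The alternative-pathway protease gene CFD, not a member, differed by 0.08.

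Among the pore-forming components C6 had the widest measured difference, 1.14, and it was dim. C6 had 5.04 in CD133+ cells, against 3.90 in CD133- cells, and MAS5 signals of 139 in CD133+ and 66.5 in CD133- cells. Since the CD133- value lay below the floor, the RMA values support a statement of at least 1.13-fold higher. C5, whose cleavage starts pore assembly, had 9.51 in CD133+ cells and 9.88 in CD133- cells, 1.29-fold lower. The C8 chains C8A, C8B and C8G differed by -0.04, 0.05 and -0.26. C7 and C9 were below the floor on both arrays, and C6 was the only detected member whose brightest probe set had a value on either side of it.

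**Figure D3:**
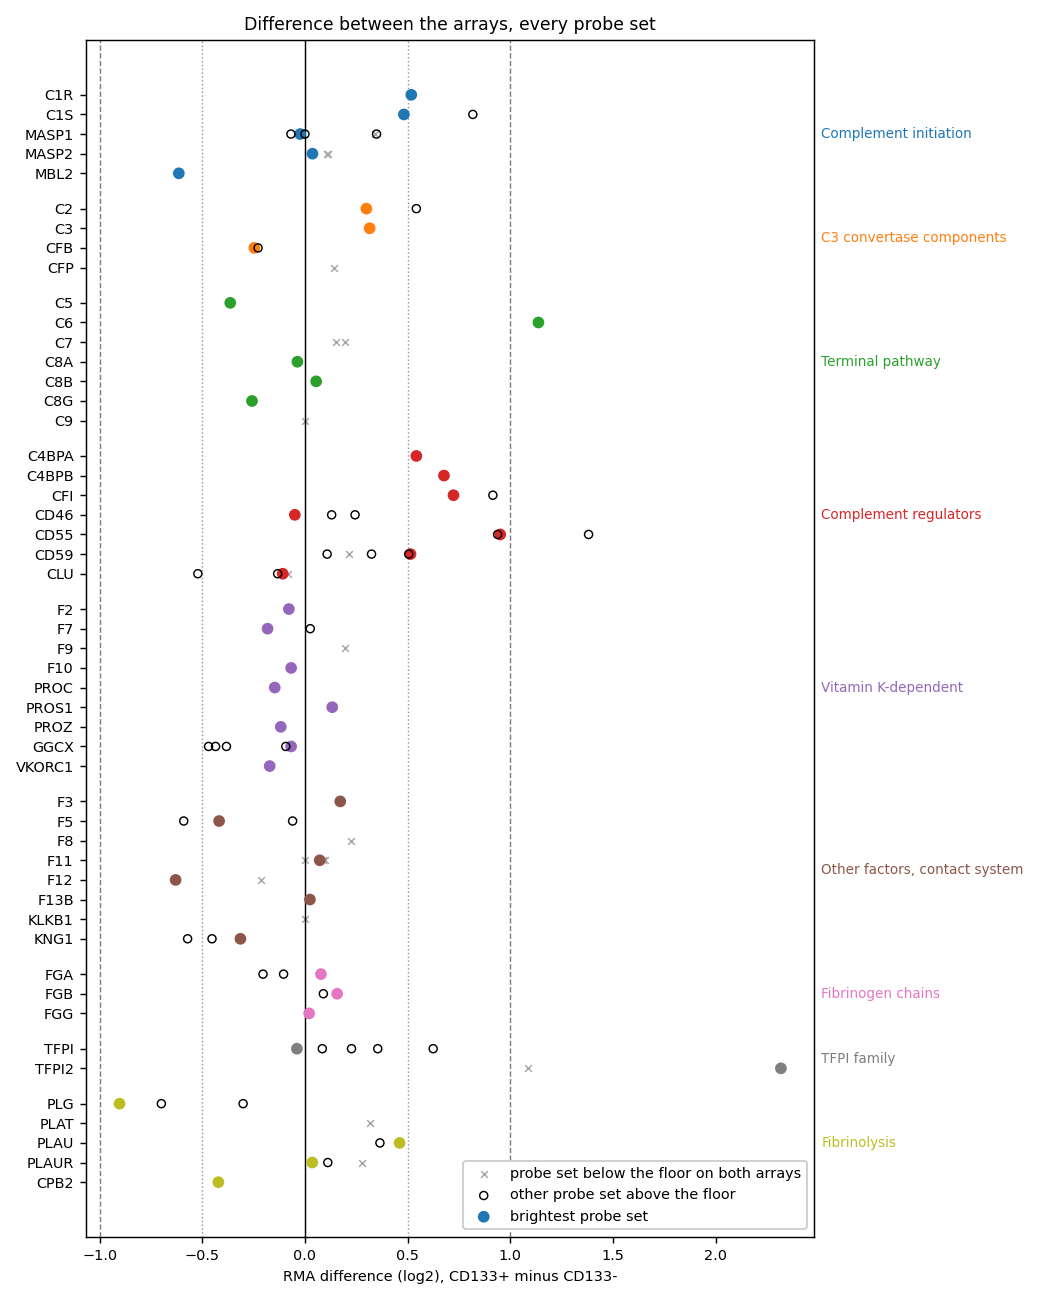
RMA differences (horizontal axis, log2, CD133+ minus CD133-) of all 98 member probe sets, by gene and role down the page. Filled points are the brightest probe set of a gene, open circles its other probe sets above the floor and grey crosses probe sets below the floor on both arrays, with dotted lines at 0.5 and dashed lines at 1 on either side of 0. CD55, CFI and PLG keep 1 side on every probe set, while TFPI spreads from -0.04 to 0.62.

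In coagulation, the largest difference of any member was that of TFPI2, tissue factor pathway inhibitor 2, a secreted Kunitz-type inhibitor that binds to the matrix and acts on plasmin and other serine proteases. TFPI2 had 7.91 in CD133+ cells, against 5.59 in CD133- cells, a 4.99-fold difference that ranked 26 from the top among the 12899 detected genes. MAS5 signals were 1111 in CD133+ and 215 in CD133- cells. The other TFPI2 probe set, below the floor on both arrays, had 4.45 in CD133+ and 3.36 in CD133- cells, a difference of 1.09, and the mean over both was 1.70. The brighter TFPI2 probe set is of the kind that can match several transcripts, as are the brightest of C1R, C4BPB, CD55 and CD59. Without such probe sets (IDs ending in _s_at or _x_at) CD55 stood at 1.38, from an ID ending in _a_at, and CD59 at 0.11. TFPI, the related inhibitor of tissue factor and factor Xa, had 10.49 in CD133+ cells and 10.53 in CD133- cells. The 5 TFPI probe sets differed by -0.04, 0.35, 0.62, 0.23 and 0.08, with a mean of 0.25, and by MAS5 all 5 were higher, by 0.22, 0.36, 0.68, 0.26 and 0.21. F3, tissue factor itself, had 6.59 in CD133+ cells and 6.42 in CD133- cells, a difference of 0.17, while MAS5 gave signals of 466 in CD133+ and 252 in CD133- cells, a difference of 0.89.

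By brightest probe sets, the vitamin K-dependent proteins, taken with the enzymes GGCX and VKORC1, formed the most even role apart from fibrinogen. The 8 detected members ranged from -0.18 to 0.13 on these probe sets, with a median of -0.10. F2 (prothrombin) had 9.74 in CD133+ cells and 9.82 in CD133- cells, and F10, which converts it, had 8.02 in CD133+ and 8.09 in CD133- cells. F7, the partner of tissue factor, was the lowest with 8.16 in CD133+ cells and 8.34 in CD133- cells. PROS1 (protein S), the cofactor of activated protein C, was the highest with 9.98 in CD133+ and 9.85 in CD133- cells. PROC (protein C) and PROZ (protein Z) differed by -0.15 and -0.12. VKORC1, which recycles vitamin K, differed by -0.17. GGCX, the carboxylase, differed by -0.07 on its brightest probe set and by -0.09 to -0.47 on the other 4, all lower. Its mean, -0.29, lay outside the range above.

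F12, KNG1 and the large cofactor F5 were lower in CD133+ cells, each by less than 2-fold. The other detected genes of this role were nearly equal by RMA and higher by MAS5. F12 (Hageman factor), which starts the contact pathway, had 8.83 in CD133+ cells and 9.46 in CD133- cells, 1.55-fold lower, with MAS5 signals of 2087 in CD133+ and 3804 in CD133- cells. KNG1, the gene of kininogen, had 10.52 in CD133+ cells and 10.83 in CD133- cells, and its other probe sets differed by -0.57 and -0.45. F5, the cofactor of factor Xa, had 8.13 in CD133+ cells and 8.54 in CD133- cells, with -0.59 and -0.06 on the others. F11, a protease of the intrinsic pathway, and F13B, the carrier subunit of factor XIII, differed by 0.07 and 0.02 by RMA and by 0.33 and 0.36 by MAS5, and F3 by 0.17 by RMA and 0.89 by MAS5. None of these 6 genes reached 2-fold by either algorithm.

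The fibrinogen chains were nearly equal on both arrays. FGA had 11.92 in CD133+ cells, against 11.84 in CD133- cells. FGB had 12.43 in CD133+ cells and 12.27 in CD133- cells. FGG had 12.87 in CD133+ cells and 12.85 in CD133- cells. The differences, 0.08, 0.16 and 0.02, were all smaller than the SD of 0.21 between probe sets of the same gene, and the other 2 FGA probe sets differed by -0.10 and -0.20.

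In fibrinolysis, plasminogen was lower and its urokinase activator was somewhat higher. PLG (plasminogen) had 9.14 in CD133+ cells, against 10.04 in CD133- cells, 1.87-fold lower, which ranked 22 from the bottom among the detected genes. MAS5 signals were 1627 in CD133+ and 3211 in CD133- cells. All 3 PLG probe sets were lower, by 0.90, 0.70 and 0.30, and their mean was -0.63. CPB2, the carboxypeptidase that protects fibrin from plasmin, had 10.49 in CD133+ cells and 10.91 in CD133- cells, 1.34-fold lower. PLAU, the urokinase activator of plasminogen, had 5.91 in CD133+ cells and 5.45 in CD133- cells, with MAS5 signals of 320 in CD133+ and 177 in CD133- cells. Its receptor gene PLAUR differed by 0.04, and PLAT, the tissue-type activator, was below the floor.

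**Figure D4:**
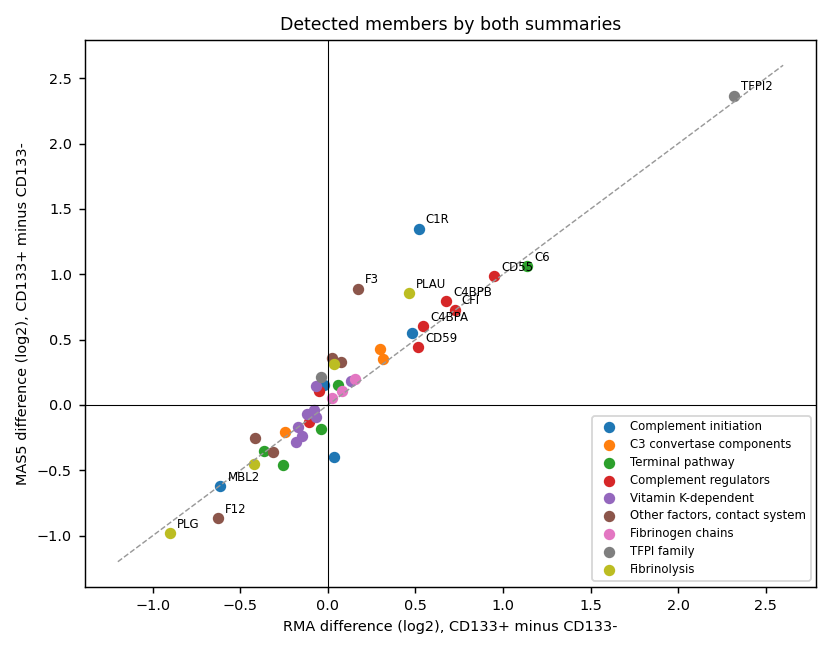
MAS5 difference (vertical axis) against RMA difference (horizontal axis), both log2 and CD133+ minus CD133-, for the 43 detected members coloured by role; the dashed line marks equal values. The 11 members at 0.5 or more by RMA have the same sign by MAS5, and C1R (0.52 by RMA, 1.35 by MAS5) and F3 lie farthest above the line.

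The labels of the RMA and MAS5 values differ only in the algorithm, so they were taken as summaries of the same array and not as replicates; whether each pair comes from 1 hybridization was not tested. They gave the same sign for 38 of the 43 detected members. The other 5, MASP1, MASP2, CD46, F10 and TFPI, differed by no more than 0.07 by RMA. By MAS5, 4 members were at least 2-fold higher, C1R, C6, C7 and TFPI2, and 0 were lower, beside 4.47% and 1.71% of the 12251 genes above the MAS5 floor of 91.8. The CD133- signals of C6 and C7 lay below that floor, which leaves them at least 1.51-fold and at least 1.26-fold higher. With signals below it set to it, C1R and TFPI2 made 2 members at least 2-fold higher and 0 were lower, beside 2.55% and 0.4% of all genes. Of 19 detected members with more than 1 probe set above the floor, 14 had the same sign on all of them, including all 4 such members at 0.5 or more, CD55, CFI, CD59 and PLG. The largest gap between probe sets of a member was 0.66, for TFPI, and the median gap was 0.29.

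Many members lie beside each other in the genome (gene order of GRCh38.p14), and their differences are set side by side without a test. On chromosome 1, C4BPB, C4BPA and CD55 follow each other with 0 protein-coding genes between them and differed by 0.68, 0.54 and 0.95, while CD46, 3 protein-coding genes beyond CD55, differed by -0.05. The adjacent C1S and C1R on chromosome 12 differed by 0.48 and 0.52. The fibrinogen genes on chromosome 4 and F7, F10 and PROZ on chromosome 13 were runs of small differences. C2 and CFB on chromosome 6, with 1 gene between them, differed in opposite directions by 0.30 and -0.25.

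Sequences before the start sites are shown for members that carry the differences (TFPI2, CD55, CFI, C4BPA and PLG) and for FGB as a liver-secreted member that was nearly equal. Each is the 250 bases before the RefSeq start site, GRCh38.p14, on the gene's strand. The capitals mark matches, on either strand, to the core of the hepatocyte factor HNF1 site (GTTAAT), to HNF4 (CAAAGNNCA), C/EBP (TTGCNNAA), AP-1 (TGANTCA) or the SP1 GC box (GGGCGG); none of the marked matches overlap.
TFPI2, chr7:93890754-93891003, strand minus: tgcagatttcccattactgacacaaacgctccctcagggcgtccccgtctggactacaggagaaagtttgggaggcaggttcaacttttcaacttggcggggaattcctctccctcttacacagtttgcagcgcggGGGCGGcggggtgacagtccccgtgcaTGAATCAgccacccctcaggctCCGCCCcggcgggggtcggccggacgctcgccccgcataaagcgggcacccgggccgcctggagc
CD55, chr1:207321428-207321677, strand plus: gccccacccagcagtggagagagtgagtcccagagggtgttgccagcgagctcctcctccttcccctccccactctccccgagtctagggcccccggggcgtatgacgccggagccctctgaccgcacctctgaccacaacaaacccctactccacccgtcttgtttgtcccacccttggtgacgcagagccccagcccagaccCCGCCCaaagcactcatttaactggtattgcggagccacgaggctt
CFI, chr4:109802000-109802249, strand minus: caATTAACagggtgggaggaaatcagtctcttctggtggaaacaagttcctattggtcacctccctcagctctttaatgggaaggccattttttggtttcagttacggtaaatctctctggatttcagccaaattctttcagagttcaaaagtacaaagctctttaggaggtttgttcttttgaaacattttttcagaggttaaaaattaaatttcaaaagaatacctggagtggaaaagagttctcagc
C4BPA, chr1:207103983-207104232, strand plus: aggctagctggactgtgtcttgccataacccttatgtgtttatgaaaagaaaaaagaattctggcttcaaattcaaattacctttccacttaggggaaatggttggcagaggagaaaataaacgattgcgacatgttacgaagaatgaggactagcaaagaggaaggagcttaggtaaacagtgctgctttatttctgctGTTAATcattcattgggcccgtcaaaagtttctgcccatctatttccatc
PLG, chr6:160701943-160702192, strand plus: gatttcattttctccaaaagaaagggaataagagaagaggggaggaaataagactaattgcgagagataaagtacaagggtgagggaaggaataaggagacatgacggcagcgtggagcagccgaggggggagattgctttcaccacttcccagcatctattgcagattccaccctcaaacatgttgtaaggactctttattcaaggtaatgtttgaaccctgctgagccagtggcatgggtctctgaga
FGB, chr4:154562730-154562979, strand plus: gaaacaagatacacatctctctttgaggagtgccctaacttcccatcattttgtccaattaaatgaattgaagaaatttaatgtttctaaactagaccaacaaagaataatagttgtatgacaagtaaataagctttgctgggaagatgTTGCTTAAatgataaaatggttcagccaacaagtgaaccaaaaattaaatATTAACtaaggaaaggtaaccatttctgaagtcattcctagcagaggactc

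The TFPI2 window held 20 CG dinucleotides, 2 GC boxes and an AP-1 match, and that of CD55 held 12 CG dinucleotides and a GC box. The windows of CFI and C4BPA held 1 and 4 CG dinucleotides and an HNF1 core each, at 248 and 50 bases before the start site. FGB had an HNF1 core at 51 bases and a C/EBP match at 101 bases before the start site, and no CG. PLG had none of these motifs in this window. Of the 46 members with a window, 7 held the HNF1 core (15.2%, against 6.22% of all 27305 genes with a window), 10 the C/EBP motif (21.7% against 9.13%) and 4 the HNF4 motif (8.70% against 4.43%). GC boxes were in 8 (17.4% against 42.3%) and AP-1 matches in 3 (6.52% against 6.60%). These 5 patterns were picked out of 15 searched, after their matches had been seen. Of the other 10, the interferon-activated site (GAS) TTCNNNGAA was in 12 member windows (26.1%, against 6.78% of all), the AT-rich FOXA form TATTTA in 11 (23.9% against 12%), the short HNF4 form AGTCCA in 8 (17.4% against 9.71%), the FOXA form TGTTTGC in 2 (4.35% against 3.19%) and the HNF4 form CAAAGTCCA in 1 (2.17% against 0.293%). The NF-kB pattern was in 7 (15.2% against 22.1%) and the TATA box TATAAA in 4 (8.70% against 11.1%). The C/EBP form TTGCGCAA and both longer HNF1 forms were in 0 member windows. The GAS pattern, which is not marked in the printed windows, had the widest gap above the share of all windows in percentage points. The median CG count was 4 in member windows and 11 in all windows. The higher members were of both kinds: among the 8 windows of members at 0.5 or more, CG counts ran between 1 and 20, and among the 3 lower ones between 1 and 4. A match is a run of letters and shows no binding, and the windows of C1S, C3, C8G, CLU and PLAT were not used here.

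Other genes of these pathways showed no difference of 2-fold. Of 26 further complement genes, 20 had a probe set and 6 were detected, from -0.35 for SERPING1 (C1 inhibitor) to 0.08 for CFD. Of 27 further coagulation and fibrinolysis genes, 24 had a probe set and 18 were detected, from -0.61 to 0.45, with a median of 0.01. The lowest was SERPINC1 (antithrombin), with 10.28 in CD133+ cells and 10.89 in CD133- cells, 1.52-fold lower, followed by SERPINF2, the plasmin inhibitor, with a difference of -0.52. The highest was S100A10, part of a cell-surface plasminogen receptor, with 12.81 in CD133+ cells and 12.35 in CD133- cells. F2R, the thrombin receptor, differed by 0.36, and LMAN1 and MCFD2, the export receptor of factors V and VIII, by -0.08 and -0.09. Other probe sets above the floor reached 0.04 for LMAN1 and 0.20 for MCFD2.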

How the data were processed

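The deposited table holds 4 columns, an RMA and a MAS5 column for each sorted population. Per the labels, the MAS5 columns are linear signal intensities per probe set; the authors scaled them so that the mean after trimming 2% at each end was 500.1 on both arrays. The RMA columns are deposited log2 values from 1.33 to 14.2, per the labels. The submitters' processing notes name MAS5, RMA and GCOS; versions, and which arrays RMA normalized jointly, were not given in the sources used here. RMA includes quantile normalization, so a global shift between populations cannot be seen. Precision is limited by the number of arrays.

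Of 54675 probe sets, 41097 had 1 gene symbol, 1801 several and 11777 none. Through the gene number, 41043 probe sets were matched to a gene of GRCh38.p14 and took its current symbol, whether or not it had changed. The probe set with the highest mean RMA stood for its gene. Calls needed a detected gene and a 2-fold difference. A call used the difference as measured; the fold stated for a gene with its dimmer side under the floor was taken against the floor, and calls with such values set to the floor are given beside. Promoter sequences are from RefSeq (GRCh38.p14), the first window listed per gene, cut to the 250 bases before the start site; 46 of 51 members matched. Members and lists were chosen with earlier results of these data known. In all, 15 motif patterns were searched on both strands; the 5 marked in the printed windows, the window of 250 bases and the 6 genes printed were settled after matches had been seen in windows reaching past the start site, where PLG had an HNF1 core. All members could be named, with values on both arrays for those at 0.5 or more and for the extremes of each role, others being chosen for their role; of other pathway genes the extremes were named, with SERPINF2, F2R, LMAN1 and MCFD2 added after their values were seen. Python 3.11.15 with pandas 2.3.3 and numpy 2.4.6 was used, tested on simulated data. Alternatives were MAS5, the mean over probe sets, and leaving out probe sets that can match several transcripts (IDs ending in _s_at or _x_at). IDs ending in _a_at were kept. Further alternatives were no floor, a floor at the 75th percentile (6.79), a 1.5-fold limit and centring on the median.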

Additional observations from a re-analysis of the deposited data

How the results depend on the processing

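The main values were 2 members higher and 0 lower by 2-fold, and 213 and 15 of all detected genes. With values below the floor set to it, an alternative chosen after seeing the data, 1 member (TFPI2) was higher. By MAS5 there were 4 members higher, and 548 and 209 of all genes, so that the share of higher calls among all genes was 72.4% by MAS5 and 93.4% by RMA. With the floor at the 75th percentile 1 member (TFPI2) and 117 genes were higher. At 1.5-fold, 5 members were higher and 3 lower, beside 474 and 130 genes, a share of 78.5% higher; these counts move by construction. Without probe sets that can match several transcripts, 5 members and 3 of the 5 regulators then detected were higher by at least 0.5, beside 4.49% of all genes then detected. The main values were 8 members and 5 of 7 regulators, beside 4.67%. Fewer members (30) could be measured, TFPI2 was lost and CD59 stood at 0.11. At 0.5 log2, 603 of all detected genes were higher and 201 lower, against 1472 and 874 by MAS5 and 334 and 113 with the floor at the 75th percentile. The other counts stayed within 1.5 times their main value, and the member median stayed between -0.06 and 0.15. The 2 called members, TFPI2 and C6, kept their sign wherever they were measured. Small differences of uncalled members did change sign. These were MASP1, MASP2, CD46, F10 and TFPI by MAS5, MASP1, CD46, TFPI and FGA by the mean, and FGA and F7 without shared probe sets. Of 112 values of single members by MAS5, by the mean over probe sets or without shared probe sets, 96 moved by less than 0.208 and 16 by more. The limit of 0.208 is the SD between probe sets of a gene. Many of the 96 could not move. The mean leaves members with 1 probe set as they are, and leaving out shared probe sets does so where the brightest is unshared. By MAS5, which computes every value anew, 33 moved by less and 8 by more. The other floors and the centring leave single differences as they are or shift them alike, except for C6, at 0.18 with its CD133- value set to the floor. No paired analysis was possible because each population has 1 array, and no replicate could be left out. The counts at 0.5 log2 were added after the values had been seen, under the same alternatives. Dim members such as C6 are limited by signal near the floor.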
